A study of Mus musculus with 2 samples.

Results

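The genes described here are 29 members of the pathways that make cholesterol and fatty acids, out of 27998 genes in the deposited matrices. They were taken by symbol from a list of pathway genes, and all 29 were found in both libraries. They comprise 7 genes of the mevalonate steps (Acat2, Hmgcs1, Mvk, Pmvk, Mvd, Idi1 and Fdps), 11 of the sterol steps (Fdft1, Sqle, Lss, Cyp51, Tm7sf2, Msmo1, Nsdhl, Hsd17b7, Ebp, Sc5d and Dhcr7), 5 of control and transport (Insig1, Srebf1, Srebf2, Scap and Stard4) and 6 of fatty acid synthesis (Fasn, Acaca, Acly, Scd1, Scd2 and Elovl6).

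The study profiled single cells from the pancreas of Rosa26-mTmG;Fabp4-Cre mice with 10x Genomics 3′ libraries, 1 library per group. In these mice the Fabp4 promoter drives Cre, and a cell that has recombined the mTmG reporter, together with its descendants, carries GFP. The normal library holds GFP-positive cells from healthy pancreata of mice aged 6 to 9 weeks, labelled as pancreatic stellate cells (PSCs), the lipid-storing resident fibroblasts of the pancreas. The tumour library holds cells positive for both GFP and PDPN, labelled as cancer-associated fibroblasts (CAFs), from mice of the same genotype that received FC1245 pancreatic cancer cells orthotopically at 8 weeks of age and were collected 21 days later. The number of mice per library is not given in the sources used here, the 2 tissues were dissociated with different enzymes, and PDPN was gated in the tumour sort alone. Mouse age at collection differed as well. Tumour, gate, dissociation, age and library therefore cannot be told apart. With 1 library per group no test between the groups was possible, and every interval below covers counting error only.

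Cholesterol is built from acetyl-CoA. Its units are condensed to mevalonate, converted to isoprenoids, joined to squalene, closed to lanosterol and trimmed to cholesterol by a series of sterol enzymes. Fatty acids start from the same precursor: Acly releases acetyl-CoA from citrate, Acaca carboxylates it, Fasn assembles palmitate, Elovl6 elongates it and the stearoyl-CoA desaturases Scd1 and Scd2 introduce a double bond. Both branches are driven by the SREBP transcription factors, encoded by Srebf2 (mainly sterol genes) and Srebf1 (mainly fatty acid genes), which the sterol sensor Scap escorts to the Golgi unless Insig1 retains them in the endoplasmic reticulum. Quiescent stellate cells are known for storing lipid droplets, which they lose on activation.

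SREBP factors act on promoters together with NF-Y and Sp1, so the promoters of the members were searched for 4 motifs on both strands. RefSeq promoter entries on GRCm38.p6, from 250 bases before to 50 bases after the start, were held for 23 of the 29 members. The NF-Y box CCAAT was present in 19 of 23 members, against 41.1% of all 27025 genes with an entry, and the GC box GGGCGG in 19 of 23, against 38.2%. The E-box CACGTG was present in 5 of 23, against 8.09%, and the SRE-like motif TCACNCCAC in 1 of 23, Hmgcs1, against 1.44%. The background is every gene with an entry, expressed here or not, and genes of similar level were not compared. A match describes these letters in this window and does not show binding. Sequence upstream of 4 members is printed because Hmgcs1 held the SRE-like match, Cyp51 and Sc5d are the sterol genes that differed most in opposite directions, and Srebf2 encodes the sterol regulator. Each is written 5′ to 3′ on the strand of the gene, with any of the 4 motifs, on either strand, in capitals.
Hmgcs1, chr13:119690151-119690350, plus strand, ending 1 base before the RefSeq start.
Hmgcs1: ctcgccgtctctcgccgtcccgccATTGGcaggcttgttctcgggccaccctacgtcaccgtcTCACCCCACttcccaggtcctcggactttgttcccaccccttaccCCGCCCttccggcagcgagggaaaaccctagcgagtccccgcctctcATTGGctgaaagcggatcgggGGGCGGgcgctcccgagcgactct
Cyp51, chr5:4104747-4104946, minus strand, ending 50 bases before the RefSeq start.
Cyp51: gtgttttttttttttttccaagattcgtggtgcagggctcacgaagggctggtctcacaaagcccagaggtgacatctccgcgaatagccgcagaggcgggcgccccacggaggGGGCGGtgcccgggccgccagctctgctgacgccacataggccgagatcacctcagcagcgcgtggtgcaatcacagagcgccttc
Sc5d, chr9:42264301-42264500, minus strand, ending 1 base before the RefSeq start.
Sc5d: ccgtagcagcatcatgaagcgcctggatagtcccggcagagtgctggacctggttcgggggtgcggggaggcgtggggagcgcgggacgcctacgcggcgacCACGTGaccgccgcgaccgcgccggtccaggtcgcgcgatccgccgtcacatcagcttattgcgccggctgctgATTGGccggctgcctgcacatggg
Srebf2, chr15:82147019-82147180, plus strand, ending 89 bases before the RefSeq start.
Srebf2: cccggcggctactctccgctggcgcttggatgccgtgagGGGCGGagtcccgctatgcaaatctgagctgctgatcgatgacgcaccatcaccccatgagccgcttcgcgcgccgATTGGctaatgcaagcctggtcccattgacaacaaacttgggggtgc
The Hmgcs1 stretch holds TCACCCCAC with CCAAT (read as ATTGG) on each side of it, and 2 GC boxes. The Cyp51 stretch holds 1 GC box, and the single CCAAT of Cyp51 lies 29 to 25 bases before the start, outside the printed bases. The Sc5d stretch holds an E-box and a CCAAT, and the Srebf2 stretch a GC box and a CCAAT. The entries of Hmgcs1, Sc5d and Srebf2 hold further matches that are not wholly within the printed bases, including GC boxes in each.

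The normal library had 5437 barcodes with 36675424 UMIs and the tumour library 2942 with 33285044; after filters and doublet removal 4504 and 2520 cells were kept, and 4 barcode sequences occurred in both libraries. Fibroblast-like cells made up 32.5% of the normal cells (1464 cells, 95% Clopper-Pearson interval 31.1 to 33.9%) and 86.8% of the tumour cells (2187 cells, 85.4 to 88.1%). Most other normal cells were macrophage-like (1390) or endothelial-like (1346). Fabp4, the driver gene, stood at 10207 CPM in normal endothelial-like cells and at 54.4 and 57.9 CPM in normal and tumour fibroblast-like cells. Pdpn stood at 154 CPM in the normal fibroblast-like cells and at 429 CPM in those of the tumour. CPM here is UMIs per 1000000 UMIs of the cells summed. The fibroblast markers Col1a1, Pdgfra and Lum each had a UMI in at least 86.3% of the fibroblast-like cells of either library. Of the stellate markers, Lrat had 0 UMIs in the normal sum, which allows up to 0.215 CPM, and 2.51 CPM in the tumour sum, Gfap had 1 UMI in each, and Des had 46.1 and 79.9 CPM; the cells are therefore called fibroblast-like here.

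Summed over the fibroblast-like cells, the cholesterol pathway had slightly fewer CPM in the tumour library and fatty acid synthesis was almost equal. Single enzymes differed several-fold. The 18 mevalonate and sterol genes together had 405 CPM in the normal cells (interval 394 to 415) and 361 CPM in the tumour cells (354 to 368). That is a log2 fold of -0.16 (-0.21 to -0.12). Cyp51 alone held 365 of the 5642 UMIs of this sum in the normal cells and 1829 of 9939 in the tumour cells. The median log2 fold of the 18 genes was lower, -0.49. The 6 fatty acid synthesis genes had 378 CPM (368 to 389) and 382 CPM (375 to 390), a log2 fold of 0.02 (-0.03 to 0.06). The 5 control and transport genes had 177 and 128 CPM, a log2 fold of -0.48 (-0.55 to -0.40). The median log2 fold of the 17 members with at least 20 CPM was -0.26, beside -0.25 over all 6818 genes at that level. TMM scaling of the 2 sums moves every log2 fold up by 0.34 and median-ratio scaling by 0.25, so the cholesterol sum is then 0.17 or 0.090 higher in the tumour cells.

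A gene was called at 2-fold or more with an interval excluding 1 and at least 50 CPM in either sum. Of 7 members at that level, 1 was called higher in the tumour cells, Cyp51, beside 9.34% of 3639 genes, and 1 lower, Srebf2, beside 10.9%. Over all genes this was 340 higher and 397 lower, and 554 and 188 with TMM or 515 and 242 with the median ratio. Most members lie under 50 CPM. At a minimum of 5 CPM, met by 28 of the 29 members, 1 was called higher (Cyp51), beside 7.67% of 10521 genes, and 6 lower (Mvk, Sqle, Lss, Sc5d, Srebf2 and Elovl6), beside 14.5%. The exception is Tm7sf2, a sterol reductase, with 2.01 and 1.34 CPM. Whatever the size, the interval excluded 1 for 5 of these 28 members higher in the tumour cells, beside 22.9% of the 10521 genes, and for 16 lower, beside 58.7%. The members' split is thus near that of all genes.

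**Figure D1:**
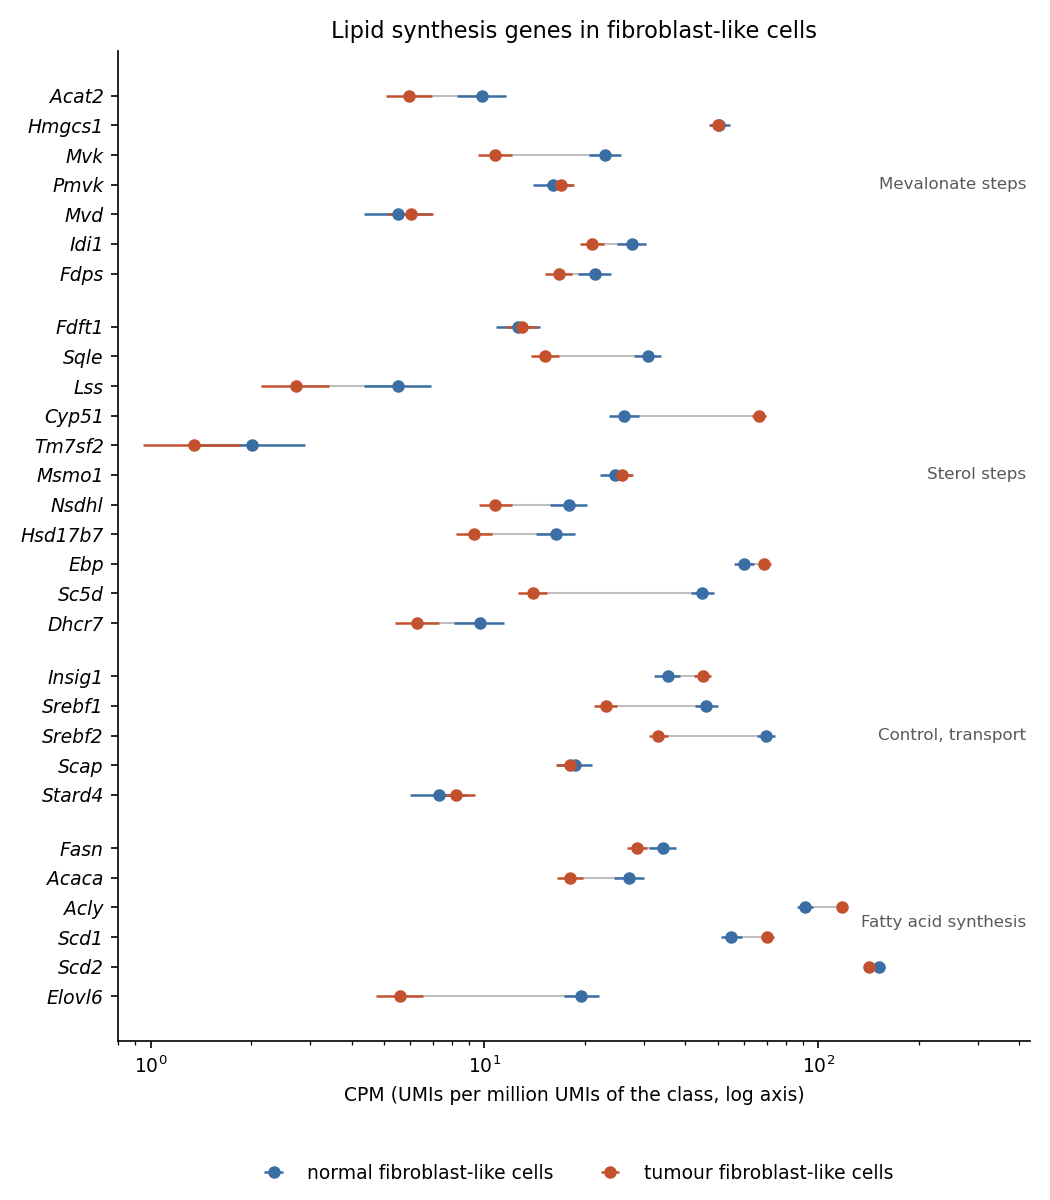
CPM (log axis) of the 29 members in the summed fibroblast-like cells of the normal (blue, 1464 cells) and tumour (orange, 2187 cells) library, with exact 95% Poisson intervals for counting error. Cyp51 lies to the right in the tumour cells (26.2 to 66.5 CPM), while Sc5d (44.98 to 14.0) and Elovl6 (19.5 to 5.60) lie to the left.

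Among the mevalonate genes, Hmgcs1 (chr13:119690379-119708260), which makes the HMG-CoA from which mevalonate is formed, had 50.6 CPM in normal and 50.1 CPM in tumour cells, a fold of 0.991 (0.905 to 1.09). Mvk (chr5:114444269-114460591), mevalonate kinase, had 23.0 and 10.8 CPM, 2.14-fold lower in the tumour cells (1.82 to 2.52). The kinase Pmvk that follows it had 15.997 and 16.9 CPM and the decarboxylase Mvd 5.52 and 6.03 CPM, both with an interval that included 1. Along this linear route Mvk thus differed beyond counting error while the next 2 enzymes, Pmvk and Mvd, did not. Idi1, the isomerase, had 27.6 and 21.0 CPM, and Fdps, which makes farnesyl diphosphate, 21.4 and 16.7 CPM. Acat2, the cytosolic thiolase, had 9.83 and 5.96 CPM. Its near-identical copy Acat3 had 2 and 27 UMIs, so Acat2 made up 98.6% of the UMIs of the pair in the normal cells and 85.9% in the tumour cells, and reads of the pair may have been split between them.

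Among the sterol genes, Cyp51 (chr5:4081145-4104746), the lanosterol demethylase, had 365 UMIs or 26.2 CPM in the normal cells and 1829 UMIs or 66.5 CPM in the tumour cells, 2.54-fold higher (2.27 to 2.85). A Cyp51 UMI was found in 17.3% of normal and 33.6% of tumour fibroblast-like cells, and in 10.7% and 21.2% once each cell was thinned to 5000 UMIs. Over 14 alternatives its log2 fold ran from 0.96, with every cell weighted the same, to 1.68, with TMM, and was at least 1 in 13. The Cyp51 gene overlaps Akap9, a kinase anchoring protein gene on the other strand. Akap9 had 155 CPM in normal and 74.3 CPM in tumour cells, 2.09-fold lower, which is the other direction. Whether strand was used in counting is not given in the sources used here.

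Sc5d (chr9:42251595-42264256), the lathosterol desaturase that acts late in the route, had 627 UMIs or 44.98 CPM in the normal cells and 384 UMIs or 14.0 CPM in the tumour cells, 3.22-fold lower (2.83 to 3.67). It was at least 2-fold lower in all 14 alternatives, with log2 folds from -2.00 to -1.35. Sqle (chr15:59315077-59331192), the squalene epoxidase, had 30.8 and 15.2 CPM, 2.03-fold lower (1.77 to 2.33). Lss, which closes squalene epoxide to lanosterol, had 5.52 and 2.72 CPM, 2.03-fold lower (1.46 to 2.82). Both fell short of 2-fold in some of the 14 alternatives, Sqle in 7 and Lss in 6. Of the genes that remove the sterol C4 methyl groups, Msmo1 had 24.7 and 25.8 CPM with an interval that included 1, whereas Nsdhl (17.9 and 10.8 CPM) and Hsd17b7 (16.4 and 9.30 CPM) were 1.66-fold and 1.76-fold lower. Ebp, the sterol isomerase, had 60.04 and 68.9 CPM, Dhcr7, a late reductase, 9.68 and 6.29 CPM, and Fdft1, squalene synthase, 12.6 and 12.9 CPM.

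Because every gene of the route is scaled alike, shares within the route do not depend on the scaling. Cyp51 made up 10.4% of the sterol-step UMIs of the normal fibroblast-like cells (interval 9.45 to 11.5%) and 28.4% of those of the tumour cells (27.3 to 29.6%). Sc5d made up 17.9% (16.7 to 19.2%) and 5.97% (5.41 to 6.58%), and Sqle 12.3% (11.2 to 13.4%) and 6.501% (5.91 to 7.13%). Ebp made up 23.9% (22.5 to 25.4%) and 29.5% (28.4 to 30.6%). Of the 11 sterol genes, 2 (Cyp51 and Ebp) had a larger share in the tumour cells and 6 (Sqle, Lss, Nsdhl, Hsd17b7, Sc5d and Dhcr7) a smaller one, with intervals that did not overlap. Shares of a common total are bound to each other, so the larger Cyp51 share in itself lowers the others. Shares without Cyp51 were not calculated. The counts of 2 larger and 6 smaller shares therefore hold only for totals that include Cyp51. The UMIs are 3′ counts, 1 per captured transcript end, and are not divided by transcript length.

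Of the control genes, Srebf2 (chr15:82147181-82205379) had 69.8 CPM in normal and 33.2 CPM in tumour cells, 2.10-fold lower (1.92 to 2.31). It was at least 2-fold lower in 10 of the 14 alternatives, and not with TMM (-0.73), the median ratio (-0.82), Pdpn-positive cells (-0.93) or normal cells without an Xist UMI (-0.92). Srebf1 (chr11:60199089-60222581) had 46.2 and 23.1 CPM, 2.00-fold lower (1.79 to 2.23) and just under the limit before rounding. It overlaps Rai1 on the other strand, which had 25.8 and 18.5 CPM. Scap had 18.7 and 18.0 CPM, a difference within counting error, and Insig1 had 35.4 and 45.1 CPM, 1.27-fold higher (1.15 to 1.42). Stard4, a cytosolic sterol carrier, had 7.32 and 8.21 CPM with an interval that included 1. Both SREBP genes were therefore lower in the tumour cells, in all 14 alternatives, while Insig1 was higher in all 14 and the sign of Scap turned in 4 of them.

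Of the fatty acid synthesis genes, Elovl6 (chr3:129532355-129638495) had 272 UMIs or 19.5 CPM in the normal cells and 154 UMIs or 5.60 CPM in the tumour cells, 3.49-fold lower (2.85 to 4.28). It was at least 2-fold lower in all 14 alternatives, with log2 folds from -1.83 to -1.46. Fasn had 34.2 and 28.7 CPM and Acaca 27.2 and 18.1 CPM, 1.19-fold and 1.51-fold lower; the sign of Fasn turned with TMM (0.08). Acly (chr11:100476353-100528000) had 91.0 and 118 CPM, 1.29-fold higher (1.21 to 1.38). That direction rests on 1 tumour cluster, since without the cluster led by Lrrc15 the log2 fold of Acly was -0.54. Scd1 (chr19:44394455-44407879) had 54.9 and 70.3 CPM, 1.28-fold higher (1.18 to 1.39), and its neighbour Scd2 (chr19:44293674-44306864) 152 and 142 CPM, a fold of 0.938 (0.889 to 0.989) whose sign turned with TMM (0.25) and the median ratio (0.16). Scd1 thus made up 26.6% of the UMIs of the 2 desaturases in the normal cells (25.01 to 28.3%) and 33.1% in the tumour cells (31.9 to 34.3%).

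Markers of other cells also differed between the fibroblast-like sums. Acinar markers summed to 568 CPM in normal and 65.4 CPM in tumour cells (0 and 1 of 10 markers at 0 UMIs), endothelial markers to 168 and 42.5 CPM (0 of 9 at 0 in both), and macrophage markers to 121 and 12.7 CPM (0 and 1 of 10). Schwann or neural markers summed to 14.8 and 164 CPM (2 of 7 at 0 in both) and ductal markers to 71.6 and 95.4 CPM (1 of 8). Their part in the differences above was not tested. Adipocyte markers, which bear on lipid genes, summed to 1.36 and 5.05 CPM (4 and 3 of 10 at 0), with Adipoq at 0 UMIs in the normal and 3 UMIs in the tumour sum, and without cells holding an adipocyte marker UMI the calls at 50 CPM stayed Cyp51 and Srebf2.

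The fibroblast-like cells of the 2 libraries fell into different clusters, each named by its leading gene: Dlk1 (955 cells) and Efhd1 (477 cells) in the normal library, and Sfrp4 (825), Thbs4 (490), Apod (470) and Lrrc15 (364) in the tumour library. The clusters were made from these same cells, so their levels are a description. The cholesterol sum ranged from 215 CPM in the Apod cluster (201 to 231) through 267 CPM in the Sfrp4, 338 CPM in the Efhd1 and 425 CPM in the Thbs4 clusters to 460.0 CPM in the Lrrc15 cluster (446 to 474) and 464 CPM in the Dlk1 cluster (449 to 480). The intervals of the Lrrc15 and Dlk1 clusters overlapped, so those levels did not differ beyond counting error. The range among the tumour clusters was therefore wider than the difference between the library sums. Of the 29 members, 14 were highest in the Dlk1 cluster and 8 in the Lrrc15 cluster, while 12 were lowest in the Apod cluster and 7 in the Sfrp4 cluster. The same count was not made over all genes, of which 58.7% were lower in the tumour sum at a minimum of 5 CPM. These numbers are therefore not read as particular to the members.

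**Figure D2:**
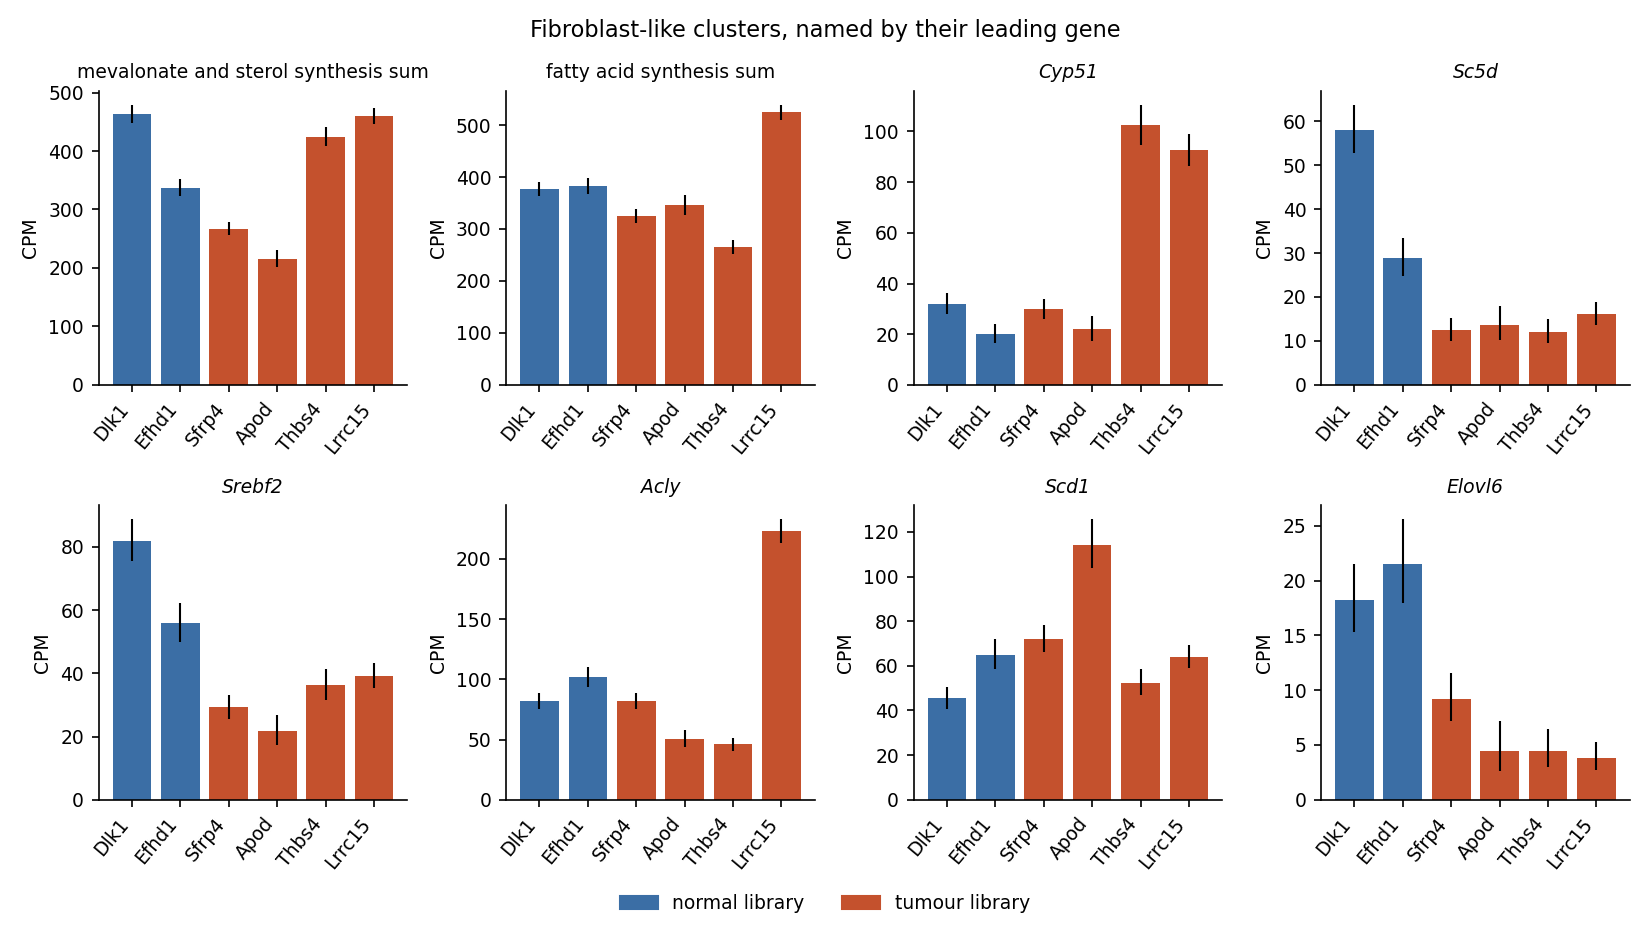
CPM with exact 95% Poisson intervals of the cholesterol and fatty acid sums and of 6 members in the 2 normal (blue) and 4 tumour (orange) fibroblast-like clusters. Cyp51 is high in the Thbs4 and Lrrc15 clusters (102 and 92.6 CPM), Acly in the Lrrc15 cluster (223 CPM) and Scd1 in the Apod cluster (114 CPM), whereas Sc5d, Srebf2 and Elovl6 are lower in all 4 tumour clusters than in both normal clusters.

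Cyp51 was high in 2 of the 4 tumour clusters and near the normal level in the other 2. It had 102 CPM in the Thbs4 cluster (94.6 to 111) and 92.6 CPM in the Lrrc15 cluster (86.6 to 99.0), beside 29.8 CPM in the Sfrp4 and 21.9 CPM in the Apod clusters and 31.9 and 20.02 CPM in the normal Dlk1 and Efhd1 clusters. Its share of the sterol-step UMIs was 36.2% in the Thbs4, 30.8% in the Lrrc15, 17.8% in the Sfrp4 and 17.0% in the Apod cluster, and 10.9% and 9.76% in the Dlk1 and Efhd1 clusters. The share was thus larger in each tumour cluster than in either normal one, also where the level was not. Akap9, the overlapping gene, lay between 64.7 and 87.9 CPM in the 4 tumour clusters and had the order of Cyp51 over a narrower range, highest in the Thbs4 cluster (80.7 to 95.5) and lowest in the Apod cluster (56.8 to 73.3). It was higher in both normal clusters, 180 CPM in the Dlk1 and 126 CPM in the Efhd1 cluster, where Cyp51 was low.

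Sc5d had 58.1 CPM in the Dlk1 and 28.9 CPM in the Efhd1 cluster, and 11.96 to 16.1 CPM in the 4 tumour clusters. Elovl6 had 18.2 and 21.5 CPM in the normal clusters and 3.83 to 9.20 CPM in the tumour clusters, and Srebf2 82.0 and 55.9 CPM against 21.6 to 39.2 CPM. For these 3 genes no tumour cluster reached either normal cluster. Srebf1 had 55.8 and 35.7 CPM in the normal and 19.8 to 24.9 CPM in the tumour clusters, with the same separation. Sqle was set apart differently: 43.2 CPM in the Dlk1 cluster, but 17.52 CPM in the Efhd1 cluster, beside 21.9 CPM in the tumour Lrrc15 and 17.4 CPM in the tumour Thbs4 cluster. Hsd17b7, a sterol ketoreductase, had the reverse order in the normal library, with 24.0 CPM in the Efhd1 (20.3 to 28.3) and 9.83 CPM in the Dlk1 cluster (7.72 to 12.3).

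The fatty acid sum had another order. It was 525 CPM in the Lrrc15 cluster (510 to 540), 383 CPM in the Efhd1, 377 CPM in the Dlk1, 346 CPM in the Apod, 325 CPM in the Sfrp4 and 265 CPM in the Thbs4 cluster (252 to 278). The Thbs4 cluster thus had a high cholesterol sum and the lowest fatty acid sum. Cyp51 alone held 642 of the 2662 UMIs of its cholesterol sum. Acly carried the Lrrc15 level, with 223 CPM there (214 to 233) against 45.9 to 102 CPM in the other 5 clusters, and made up 42.5% of the fatty acid UMIs in it. The Lrrc15 cluster was also the deepest, with a median of 25426.5 UMIs per cell against 7805 to 12645 in the others, and holds the myofibroblast markers Cthrc1, Tnc and Col12a1 among its top genes; the part of depth was not tested beyond thinning. Scd1 had 114 CPM in the Apod cluster (104 to 126) and 45.4 to 72.0 CPM in the other 5, and took 45.4% of the desaturase UMIs there. Fasn ranged from 22.4 to 36.4 CPM over the 6 clusters.

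Single cells were compared after thinning each to 5000 UMIs. In the Apod cluster 51.0% of the cells had no cholesterol pathway UMI and 4.51% had 5 or more. In the Dlk1 cluster 18.4% had none and 11.7% had 5 or more, in the Thbs4 cluster 23.6% and 14.3%, and in the Lrrc15 cluster 25.2% and 15.5%. The intervals of the shares without a UMI were 20.8 to 30.02% in the Lrrc15 and 15.9 to 21.2% in the Dlk1 cluster. For fatty acid genes 14.7% of the Lrrc15 and 33.0% of the Thbs4 cells had no UMI. Of the fibroblast-like cells, 145 normal and 368 tumour ones had too few UMIs to be thinned and were left out.

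**Figure D3:**
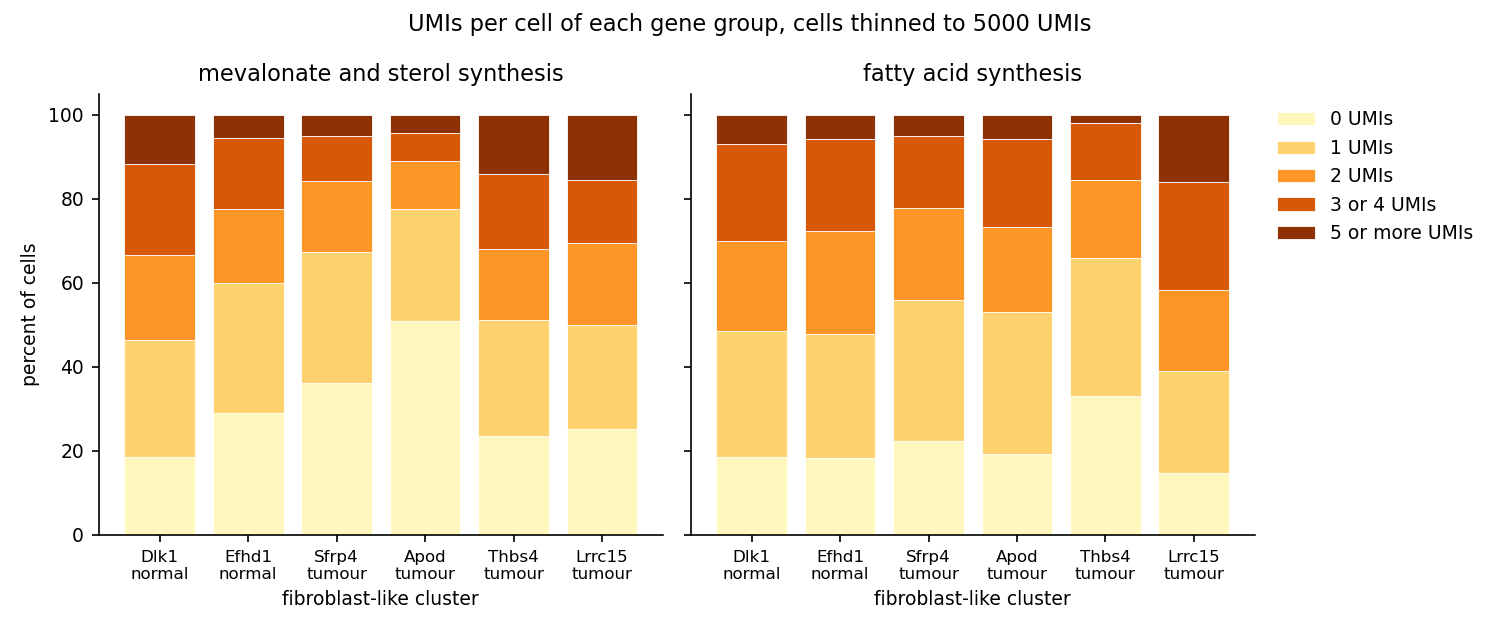
Percent of cells with 0, 1, 2, 3 or 4, and 5 or more UMIs of the cholesterol genes (left) and the fatty acid genes (right) in the 6 fibroblast-like clusters, after thinning each cell to 5000 UMIs. For cholesterol genes the Apod cluster has the most cells at 0 (51.0%) and the Lrrc15 cluster the most at 5 or more (15.5%).

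Outside the fibroblasts, the tumour epithelial-like cells had the highest cholesterol sum, 1007 CPM (947 to 1069) in 42 cells with a median of 21450.5 UMIs. Cyp51 alone had 272 CPM there (241 to 306), which is 38.4% of the sterol-step UMIs, Ebp 143 CPM and Msmo1 116 CPM. Their fatty acid sum, 335 CPM (301 to 372), was not set apart in this way. These cells were found in the tumour library alone, with 0 of 4504 normal cells. The sums of the other classes with at least 50 cells lay between 236 CPM in normal endothelial-like cells and 526 CPM in the tumour cluster with lymphatic endothelial markers, which also holds cycling cells and fibroblast markers at 26544 CPM.

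**Figure D4:**
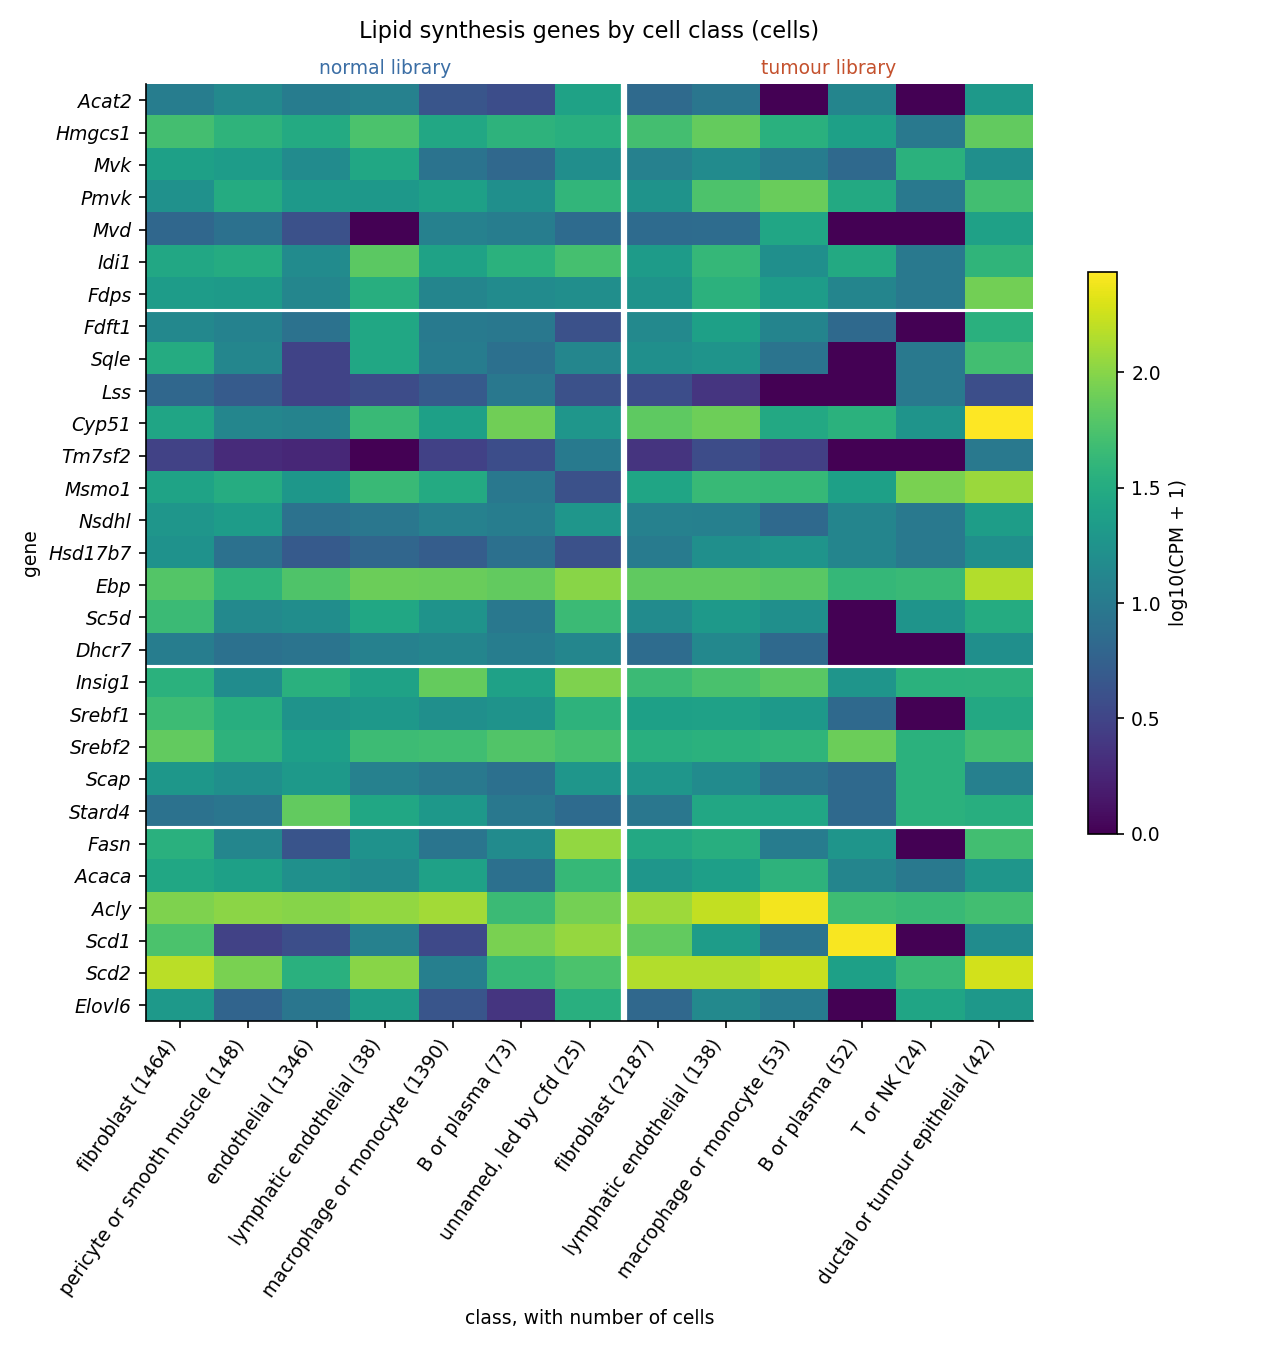
Heat map of log10(CPM + 1) of the 29 members (rows, in pathway order) in the cell classes with at least 20 cells of the normal (left) and tumour (right) library, with cell numbers in brackets. Cyp51 is brightest in the tumour epithelial-like cells (272 CPM), Scd1 in tumour B cells (258 CPM) and Stard4 in normal endothelial-like cells (69.4 CPM).

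The balance of the desaturases differed between classes. Scd1 had 54.9 CPM in normal fibroblast-like cells and 86.6 CPM in normal B cells (66.4 to 111), but 2.81 CPM in endothelial-like, 2.43 CPM in macrophage-like and 2.02 CPM in pericyte-like cells. These low values can be background from free RNA and are not read as expression. Scd2 had 33.9 CPM in normal endothelial-like and 87.0 CPM in pericyte-like cells, so that it made up most desaturase UMIs there. In B cells Scd1 had 62 UMIs or 86.6 CPM in the normal and 44 UMIs or 258 CPM in the tumour library, 2.98-fold higher (1.97 to 4.45), in 73 and 52 cells with medians of 9817 and 2615.5 UMIs.

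In macrophage-like cells Scd2 had 123 UMIs or 10.3 CPM in the normal library (1390 cells) and 88 UMIs or 169 CPM in the tumour library (53 cells), 16.4-fold higher (12.3 to 21.7). Different clusters hold most of this class in the 2 libraries. In the cluster led by Mmp12, which has cells of both, Scd2 had 18.3 CPM in 120 normal cells (11.7 to 27.2) and 183 CPM in 47 tumour cells (146 to 226). A Scd2 UMI was found in 18.3% of these normal cells (11.9 to 26.4%) and 44.7% of these tumour cells (30.2 to 59.9%). In the tumour cells 5 cells held 54 of the 86 UMIs, and 1 cell held 25, so the CPM rests on few cells. That cluster does not hold matched cells: at a Leiden resolution of 1, 114 of its 120 normal cells lay in a cluster led by Ear2 with 0 tumour cells, and 45 of its 47 tumour cells in a cluster led by Alox15. In the cluster led by Alox15, 38 normal cells had 3 Scd2 UMIs or 6.85 CPM (1.41 to 20.01), and the 45 tumour cells 86 UMIs or 192 CPM (154 to 237). Of those 38 normal cells only 6 came from the cluster led by Mmp12, with 0 Scd2 UMIs (0 to 146 CPM), whereas all 45 tumour cells did. Most of these normal cells thus came from other clusters, and this pair is not shown to be matched either. Acly in the cluster led by Mmp12 had 69.4 and 272 CPM, with 83 of the 128 tumour UMIs in 5 cells. Fibroblast markers summed to 188 and 321 CPM there, and tumour fibroblast-like cells had 142 CPM of Scd2; the part of fibroblast RNA was not tested.

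Other members, too, had their highest level outside the fibroblasts. Stard4 had 69.4 CPM (62.7 to 76.6) in normal endothelial-like cells, with a UMI in 23.6% of them at a median of 3956.5 UMIs, against 7.32 CPM and 5.74% in normal fibroblast-like cells at a median of 8996 UMIs. Insig1 had 71.2 CPM in normal macrophage-like cells, and within them 119 CPM (108 to 131) in the cluster led by Cd5l and 50.1 CPM in that led by Ms4a7. Acly had 272 CPM in the Cd5l and 59.5 CPM in the Ms4a7 cluster, and made up 72.4% of the fatty acid UMIs of all normal macrophage-like cells. By contrast, Mvk, Sqle, Sc5d, Srebf1, Fasn and Elovl6 were highest in normal fibroblast-like cells among the classes with at least 50 cells, though Mvk in pericyte-like cells (21.2 CPM) and Fasn in the tumour cluster with lymphatic markers (32.5 CPM) came close. Groups below that size could be higher, as the Cfd-led cluster was for Fasn and Elovl6 and the tumour epithelial-like cells for Sqle.

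Of the neighbouring pathway genes, the few called lie in sterol uptake and sensing, fatty acid desaturation and acyl-CoA synthesis. Measured genes have at least 20 CPM in either fibroblast-like sum, and those with at least 50 CPM could be called, beside 9.34% of genes called higher and 10.9% lower at that level. Of 12 measured genes of cholesterol uptake, esterification, trafficking and efflux, 7 could be called, and 0 were called higher and 2 lower: the lipoprotein receptor Vldlr (95.1 to 28.2 CPM, 3.38-fold) and the oxysterol receptor gene Nr1h3 (62.7 to 23.3 CPM, 2.70-fold). Under the 50 CPM limit, Ch25h, the cholesterol 25-hydroxylase, had 3.66 and 48.6 CPM, 13.3-fold higher (10.0 to 17.9), and Cyp27a1, the sterol 27-hydroxylase, 44.5 and 7.67 CPM, 5.81-fold lower (4.96 to 6.83). The 2 oxysterol-forming enzymes thus differed in opposite directions. Soat1, which esterifies cholesterol, had 51.6 and 102 CPM, 1.97-fold higher. The list median was 0.13.

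Of 10 measured genes of other fatty acid synthesis, elongation and desaturation, 4 could be called, and 0 were called higher and 1 lower, Fads1, the delta-5 desaturase (80.4 to 31.3 CPM, 2.57-fold). Fads3 (16.9 and 26.8 CPM) and Mid1ip1 (32.5 and 48.1 CPM) were at the top of that list and Elovl1 (67.0 and 55.9 CPM) was the second lowest. Of 7 measured genes of fatty acid activation and triglyceride synthesis, 2 could be called, and 1 was called higher, Acsl4, the acyl-CoA synthetase that prefers arachidonate (37.8 to 116 CPM, 3.07-fold), and 0 lower, with Acsl3 (32.2 and 17.8 CPM) and Lpin2 (28.5 and 15.3 CPM) lowest and Lpin1 (17.7 and 22.7 CPM) second. Of the 7 measured oxidation genes 4 could be called and 0 were. Acadm (58.7 and 35.3 CPM) and Hadhb (73.7 and 51.3 CPM) had the lowest folds, and Cpt1a had 34.0 and 37.1 CPM.

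The 9 measured genes of SREBP control, of which 4 could be called, and the 3 of the isoprenoid branch, of which 1 could, also gave 0 calls. The lowest SREBP control genes were Tmem97 (35.8 and 19.9 CPM) and Erlin1 (20.01 and 11.4 CPM), and the highest was Vcp (256 and 296 CPM). In the isoprenoid branch Ggps1 (26.5 and 15.6 CPM), Fnta (57.6 and 37.8 CPM) and Coq2 (30.3 and 21.2 CPM) were all lower. The list medians were -0.46 and -0.61, beside -0.25 over all genes, and those of the other 3 lists 0.19 for other fatty acid synthesis, -0.39 for activation and -0.44 for oxidation.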

How the data were processed

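Cells of 2 groups, 1 library each, were analysed. Per the submitters' processing notes, the authors used Cell Ranger 3.1.0 and mm10; the deposited matrices hold unnormalized UMI counts of each gene in each barcode. Cells were kept with at least 500 genes, 1000 UMIs and at most 10% mitochondrial UMIs. Scrublet marked 2.43% of normal cells (112 removed); in the tumour library it marked 0.0777%, so the 53 top scores were removed. Both libraries were clustered together with scanpy 1.11.5 (2000 variable genes, scaled, 30 components, 15 neighbours, Leiden resolution 0.5). Scaling and convergence were set after clusters, but not member values, were seen, so that a cluster led by Cfd stood apart. Clusters were named from marker lists when at least 3 markers were found in 25% of cells.

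Counts were summed per class and library and given as CPM with exact Poisson intervals; folds carry an exact 95% interval (conditional binomial), and shares Clopper-Pearson intervals. In the fibroblast-like sums 1 UMI is 0.0717 CPM (normal, 13940476 UMIs) and 0.0363 CPM (tumour, 27523168 UMIs). Reads were not used, so intervals cover counting error only. A sum of 0 was given the limit of 3 counts. Alternatives used edgeR 4.0.16 for TMM factors. The 2-fold call at 50 CPM was tested on simulated Poisson sums, without added spread between cells or libraries. Calls at lower minimum levels were not tested in this way. Gene positions come from GENCODE vM21 (GRCm38). The members and lists were chosen with earlier results of these data known. Genes named are all members and, of each list, the 2 highest and 2 lowest folds with at least 20 CPM, of which some are not reported here; Nr1h3, Acat3 and overlapping genes were added for calls, copies or overlap.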

Additional observations from a re-analysis of the deposited data

How the results depend on the processing

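Depth limits the least abundant members: 1 UMI is 0.0717 CPM in the normal fibroblast-like sum, and Tm7sf2 had 28 and 37 UMIs. The log2 fold of the cholesterol sum (-0.16) was -0.40 with every cell weighted the same, -0.39 without the tumour cluster led by Lrrc15 (which holds Cthrc1), -0.30 against normal cells with an Xist UMI, -0.084 against those without, -0.26 after thinning and -0.039 in Pdpn-positive cells, and turned to 0.17 with TMM and 0.090 with the median ratio. The fatty acid sum (0.02) was -0.10 with every cell weighted the same, -0.30 without the Lrrc15 cluster, -0.12 after thinning, 0.35 with TMM and 0.27 with the median ratio. Of members called higher (1), 0 remained with every cell weighted the same or at a minimum of 100 CPM. Of members called lower (1), there were 0 with TMM, the median ratio, Pdpn-positive cells, a minimum of 100 CPM or normal cells without an Xist UMI, 2 against normal cells with an Xist UMI (10.9% of all genes) and 4 at a minimum of 20 CPM (11.4% of 6818 genes). Of the members whose interval excluded 1, these turned sign: Ebp to -0.020 and Acly to -0.54 without the Lrrc15 cluster, Acly to -0.017 with every cell weighted the same, Fasn to 0.083 with TMM, and Scd2 to 0.25 with TMM and 0.16 with the median ratio. Of those whose interval included 1, Hmgcs1, Pmvk, Mvd, Fdft1, Msmo1, Scap and Stard4 turned in some alternatives, furthest Stard4 (0.17 to -0.51) and Pmvk (0.082 to -0.33) without the Lrrc15 cluster and Fdft1 (0.035 to -0.40) with every cell weighted the same. In all, 18 of 29 members kept their sign in all 14 alternatives. The causes were not tested. The alternatives with the Cfd-led cluster, by Xist and without adipocyte marker cells were chosen after seeing the data. No paired analysis was possible because each group has 1 library, and for the same reason no replicate could be left out.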

Other observations

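A small cluster of 25 normal cells led by Cfd stayed unnamed because its top genes were adipocyte markers, which summed to 26484 CPM in it; fibroblast markers summed to 9392 CPM. It had Fasn at 109 CPM (76.1 to 150) and Scd1 at 112 CPM (78.6 to 154), against 34.2 and 54.9 CPM in normal fibroblast-like cells, and Elovl6 at 33.2 CPM. Its cholesterol sum, 410.3 CPM (344 to 485), overlapped that of the normal fibroblast-like cells (394 to 415). A Scd1 UMI was found in 7 of its 25 cells and a Fasn UMI in 15. Fabp4 had 5153 CPM there.

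Xist, the noncoding RNA of the inactive X chromosome, had a UMI in 500 of the 1464 normal fibroblast-like cells. The split by Xist was made in the normal library alone, and the tumour share is not given here. Which normal cells are the closer match to the tumour cells in this respect was therefore not tested. Cells with it had a cholesterol sum of 446 CPM (427 to 465) and those without 383 CPM (370 to 396), at medians of 9120.5 and 8878.5 UMIs. The fatty acid sums, 374 and 381 CPM, differed by less than counting error. Sc5d made up 20.1% of the sterol-step UMIs in cells with Xist (18.0 to 22.3%) and 16.6% in cells without it (15.02 to 18.2%).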
